A study of Mus musculus with 10 samples.

Results

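The genes described here are 38 genes of DNA replication and S phase entry, measured by RNA sequencing in erythroid precursors from mouse bone marrow. They were taken by gene symbol from a fixed list of helicase, origin licensing, polymerase, nucleotide supply and E2F genes, a rule that uses no measured value. All 38 were among the 24421 genes of the count table, and all 38 were among the 11846 genes that passed the filter on low counts and were tested. The study asked what heterozygous loss of Ddx41, an RNA helicase gene mutated in the germline of families with myeloid malignancy, does to blood formation with intact or reduced Trp53. Lethally irradiated BoyJ mice received bone marrow mononuclear cells from Rosa-CreERT2 donors and 1 mg tamoxifen daily for 5 days in 2 rounds, and CD71+Ter119+ (R2) cells were sorted from bone marrow 8 weeks after the transplant. The 4 genotypes were Ddx41+/+Trp53+/+ (n = 3 mice), Ddx41+/-Trp53+/+ (n = 2), Ddx41+/+Trp53+/- (n = 3) and Ddx41+/-Trp53+/- (n = 2). Rosa-CreERT2 is active in all cell types, so the floxed Ddx41 allele of the Ddx41+/- donors was targeted in all donor blood cells and not in the erythroid lineage alone, whereas the Trp53 allele is a germline knockout. Irradiation, transplantation and tamoxifen were thus shared by all 4 genotypes, and non-irradiated or untreated mice were not analysed here. The ages of the mice were not given in the sources used here. Each library is named below by its genotype and the replicate number of its mouse.

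CD71+Ter119+ precursors divide rapidly, and each division requires that the genome be copied once. In G1, the origin recognition complex with Cdc6 and Cdt1 loads the Mcm2 to Mcm7 ring onto DNA, and in S phase Cdc45 and the GINS complex turn that ring into the active helicase. E2F transcription factors drive transcription of most of these genes around S phase entry, and p53 restrains this step through Cdkn1a, which encodes the cyclin-dependent kinase inhibitor p21.

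Most of the 38 genes are textbook E2F targets, so their promoters were searched for E2F letters. RefSeq promoter sequences (GRCm38.p6, 250 bases before to 50 bases after the start site) were found for 31 of the 38 genes. Mcm4, Gins1, Gins2, Gins4, Rfc2, Pole and Ccne2 had no entry. The letters TTTCGCGC or TTTGGCGC, on either strand and with overlaps counted, were present in 10 of the 31 genes (32.3%), against 251 of 27025 genes with a promoter entry (0.929%). The 10 genes were Mcm3, Mcm5, Mcm6, Mcm7, Orc1, Cdt1, Rfc3, Lig1, E2f2 and Uhrf1. Other forms of the E2F site were not searched, so the absence of these letters does not show that a promoter lacks such a site. The CCAAT letters were present in 20 of the 31 genes (64.5%), against 41.1% of all genes, and TTTGAA, the core letters of the cell cycle homology region of mitotic promoters, in 6 of the 31 (19.4%), against 20.2%. The 30 bases around the E2F letters are shown for the helicase genes, which varied together most closely across mice, and for Orc1, Lig1 and E2f2. Each is written 5′ to 3′ on the strand of the gene, with the matching letters in capitals.
Mcm3 (chr1:20820263-20820292, minus strand): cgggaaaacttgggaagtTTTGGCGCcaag
Mcm5 (chr8:75109347-75109376, plus strand): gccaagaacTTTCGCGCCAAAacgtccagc
Mcm6, nearer to the start site (chr1:128359734-128359763, minus strand): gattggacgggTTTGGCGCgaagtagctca
Mcm6, farther upstream (chr1:128359795-128359824, minus strand): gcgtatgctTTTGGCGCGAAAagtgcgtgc
Mcm7 (chr5:138171849-138171878, minus strand): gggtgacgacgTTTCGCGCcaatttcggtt
Orc1 (chr4:108579416-108579445, plus strand): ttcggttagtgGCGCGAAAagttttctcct
Lig1 (chr7:13278841-13278870, plus strand): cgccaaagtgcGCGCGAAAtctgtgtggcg
E2f2 (chr4:136172294-136172323, plus strand): cgaatttggcggcatatagTTTGGCGCtaa
Mcm5 and Mcm6 each carried a run in which a match on the plus strand overlapped a match on the minus strand. A match describes the letters only, and binding of an E2F factor was not measured.

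The targeted genes were examined first, as a check of the labels. Ddx41 stood at 25.1, 21.9 and 22.6 CPM (counts scaled to a common library total by edgeR) in the Ddx41+/+Trp53+/+ mice and at 26.6, 22.9 and 23.2 CPM in the Ddx41+/+Trp53+/- mice. It stood at 13.8 and 16.5 CPM in the Ddx41+/-Trp53+/+ mice and at 12.5 and 15.6 CPM in the Ddx41+/-Trp53+/- mice, so that all 4 heterozygotes lay below all 6 mice with both alleles. Over both Trp53 genotypes Ddx41 fell by 0.70 on the log2 scale (SE 0.11, adjusted p = 0.0173, edgeR quasi-likelihood test). Within single Trp53 genotypes its log2 fold changes of -0.63 with Trp53+/+ (adjusted p = 0.0887) and -0.78 with Trp53+/- (adjusted p = 0.177) did not pass. Trp53 lay between 57.4 and 68.1 CPM in the 5 Trp53+/+ mice and between 40.3 and 46.2 CPM in the 5 Trp53+/- mice. Its difference of -0.48 on the log2 scale (SE 0.07, adjusted p = 0.00355) was smaller than the fold of 1.5 required here for a call. Counts are per whole gene, so reads from the exons left in a targeted allele are included.

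The libraries held 7866648 to 20283930 counts in genes. The markers of the sorted stage were high in every mouse, with Slc4a1, the anion exchanger of the red cell membrane, at 25469.5 to 30511.5 CPM and Tfrc, which encodes CD71, at 2692 to 3458 CPM. The adult globin genes Hba-a1, Hba-a2, Hbb-bs and Hbb-bt were at or below 1.28 CPM in all 10 libraries, far under the other late erythroid markers. Why these counts were so low was not tested, and they are not taken as the level of globin RNA in the cells. Markers of other cells were also detected. The summed markers of neutrophils and myeloid progenitors (12 of 12 genes, S100a9 most abundant) lay between 4977 and 8524 CPM. Those of B cells (15 of 16 genes in the table, Cd74 most abundant) lay between 221 and 548 CPM, those of macrophages (10 of 10, Csf1r most abundant) between 313 and 568 CPM, those of megakaryocytes (6 of 6, Vwf most abundant) between 83.6 and 105 CPM, and those of T and NK cells (7 of 8, Nkg7 most abundant) between 4.13 and 15.2 CPM. Ddx41+/+Trp53+/+ mouse 10 stood apart from the other libraries. Its median correlation with the other libraries was 0.974, against 0.980 to 0.984 for the rest. On the first principal component, which held 21.4% of the variance, it scored -41.9. Mice 11 and 12 of the same genotype scored -23.8 and -10.6, whereas all mice of the other genotypes scored from 1.32 to 18.5. This component thus set the Ddx41+/+Trp53+/+ mice as a group apart from the other genotypes, and why was not tested. Comparisons that use these mice rest on that group. The counts of the 38 genes called and their median are also given without mouse 10 for the comparisons that use it. Other values include mouse 10 unless stated. In bulk RNA, fewer cells of a type and less RNA per cell cannot be told apart.

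The 38 genes together took 1.44% to 1.63% of the counts of each library. Their levels, as mean CPM per kb of exon over the 10 mice, spanned from 7.67 ± 1.04 (SD, n = 10) for Gins2 to 575 ± 41.0 (SD, n = 10) for Rrm2. Rrm2, E2f2 and Pcna stood above all other genes of the group. Rrm2, the small subunit of ribonucleotide reductase and the one made in S phase, lay 5.72 ± 0.24 (SD, n = 10) times above Rrm1, the large subunit. This ratio depends on the gene model. By the longest coding transcript in place of all annotated exons, a measure added after the data were seen, Rrm2 was at 727 and Rrm1 at 277 CPM per kb, and Rrm1 moved from rank 13 to rank 5 of the 38. Other ranks moved too, with Tk1 going from 17 to 6, Prim1 from 28 to 19 and Mcm2 from 12 to 7, while Rrm2, E2f2 and Pcna remained the highest 3 and Gins2 the lowest. Rrm2b, the small subunit induced by p53, was at 0.531 ± 0.111 CPM per kb (SD, n = 10). Tyms, thymidylate synthase, was the lowest of the 4 nucleotide supply genes among the 38, at 36.5 ± 2.15 CPM per kb (SD, n = 10).

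E2f2 was at 480 ± 31.8 CPM per kb (SD, n = 10), which was 9.77 ± 0.93 times the level of E2f1 and 1.97 ± 0.17 times that of E2f4 (SD, n = 10). Among the other members of the family, E2f8 reached 141 ± 6.98 CPM per kb, whereas E2f7 and E2f3 reached 7.29 ± 0.58 and 4.84 ± 0.39 CPM per kb (SD, n = 10). E2f2 thus had the highest level per kb of the E2F genes in every mouse. The cyclin E genes, which activate Cdk2 at S phase entry, were closer to each other, with Ccne1 at 87.1 ± 7.62 and Ccne2 at 48.3 ± 4.71 CPM per kb (SD, n = 10). Uhrf1, which reads hemimethylated DNA behind the fork and recruits Dnmt1, was at 179 ± 9.48 CPM per kb (SD, n = 10).

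Within complexes the subunits did not stand at 1 level. By all annotated exons the helicase subunits ranged from 114 ± 5.22 CPM per kb for Mcm2 to 187 ± 11.8 for Mcm7 (SD, n = 10). Their order rests on the gene model, since by the longest coding transcript Mcm4 was lowest at 124 CPM per kb, Mcm2 stood at 236 and Mcm7 was again highest at 280. The GINS subunits, which are present in equal numbers in the complex, ranged from 7.67 for Gins2 to 63.4 ± 4.09 CPM per kb for Gins4 (SD, n = 10), and Gins4 lay 4.49 ± 0.35 times above Gins3 (SD, n = 10). Cdt1, which loads the helicase, was the highest of the 4 licensing genes among the 38, at 81.8 ± 4.26 CPM per kb (SD, n = 10). Orc1, the largest subunit of the origin recognition complex, was the lowest of these 4 at 31.4 ± 1.67 (SD, n = 10). The subunit genes Orc2, Orc3, Orc4 and Orc5, outside the 38, were lower, from 2.55 for Orc4 to 23.6 CPM per kb for Orc2. Cdt1 stood at 0.819 ± 0.053 times the level of Gmnn, its inhibitor geminin (SD, n = 10). Pcna, the sliding clamp, was at 408 ± 19.2 CPM per kb, and its loader subunits were far lower, down to 14.5 ± 1.31 for Rfc3 (SD, n = 10), although by the longest coding transcript Rfc5 was the lowest of them. Among the 6 listed genes that bind and copy single strands, Rpa1 of the single-strand binding complex was highest at 76.5 ± 5.10 CPM per kb (SD, n = 10). Pole, the catalytic subunit of the leading strand polymerase, was lowest of the 6 at 12.6 ± 0.91 CPM per kb (SD, n = 10). Pold4, a polymerase delta gene outside the 38, was lower at 1.71 CPM per kb. The genes that finish the lagging strand were high, with the flap nuclease gene Fen1 at 156 ± 7.11 and the ligase gene Lig1 at 129 ± 9.26 CPM per kb (SD, n = 10). Of the 37 pairs of neighbours in this order, 11 stood in the same order in every mouse, and in 5 the ranges over the mice did not overlap. The ranges of the remaining pairs overlapped.

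**Figure D1:**
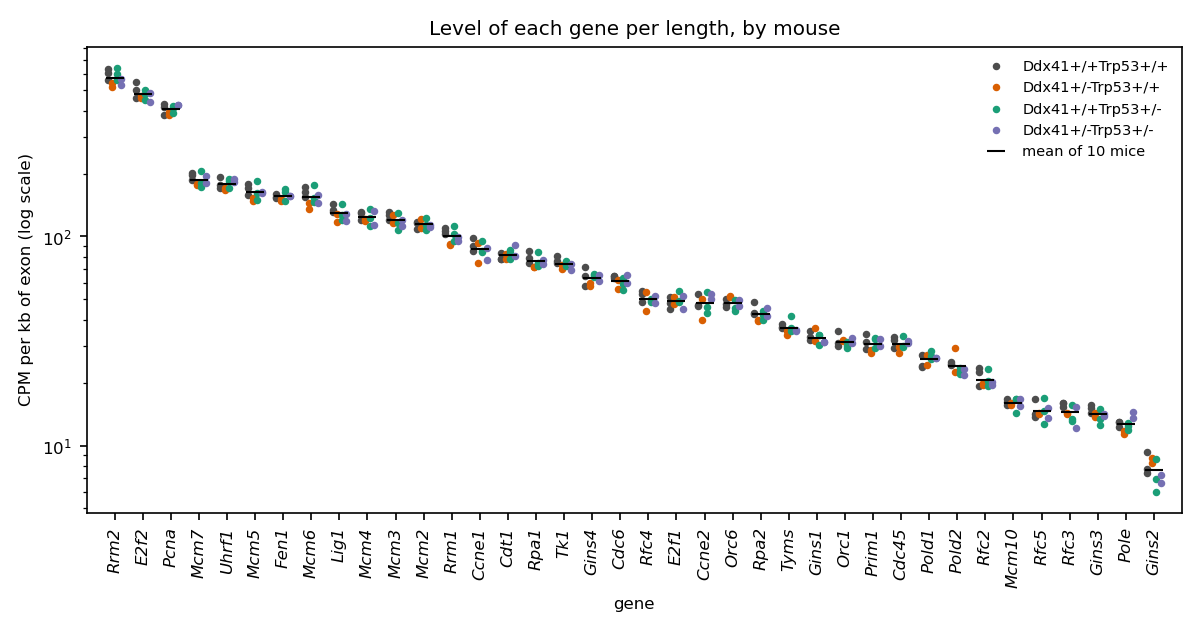
Level of each of the 38 genes in CPM per kb of exon on a log scale, ordered by the mean of the 10 mice, with 1 point per mouse coloured by genotype and a bar at the mean. Rrm2, E2f2 and Pcna stand above all other genes, at means of 575, 480 and 408 CPM per kb, and Gins2 is lowest at 7.67.

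Some of these levels are uncertain because reads can belong to more than 1 gene. In the GENCODE annotation of mm10, 84.2% of the exon bases of Fen1 overlap Gm10143 and Tmem258 on the opposite strand, and 67.3% of those of Gins2 overlap Gse1. The shares were 17.4% for Ccne2, 15.1% for Rfc2, 12.7% for Rfc4, 12.6% for Mcm7, where Mir25 and Mir93 on the same strand are counted too, 10.8% for Orc1 and 10.7% for Rfc5. The strand setting of the counting was not given in the sources used here. Of the 75-base words of the transcripts, 23.7% for Pcna, 14.5% for Mcm7 and 11.3% for Uhrf1 also occur in other genes, chiefly in the processed copies Pcna-ps2, Gm5487 and Gm5648.

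The spread between mice was small. The coefficient of variation over the 10 mice had a median of 6.55% over the 38 genes, from 4.56% for Fen1 to 13.5% for Gins2, against a median of 14.6% over all tested genes. The 38 genes were also far more abundant, with a median of 195 CPM against 15.4 CPM, and counting error is smaller at higher counts. The highest mouse exceeded the lowest by 1.13 times for Pcna and 1.55 times for Gins2, the ends of the range.

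**Figure D2:**
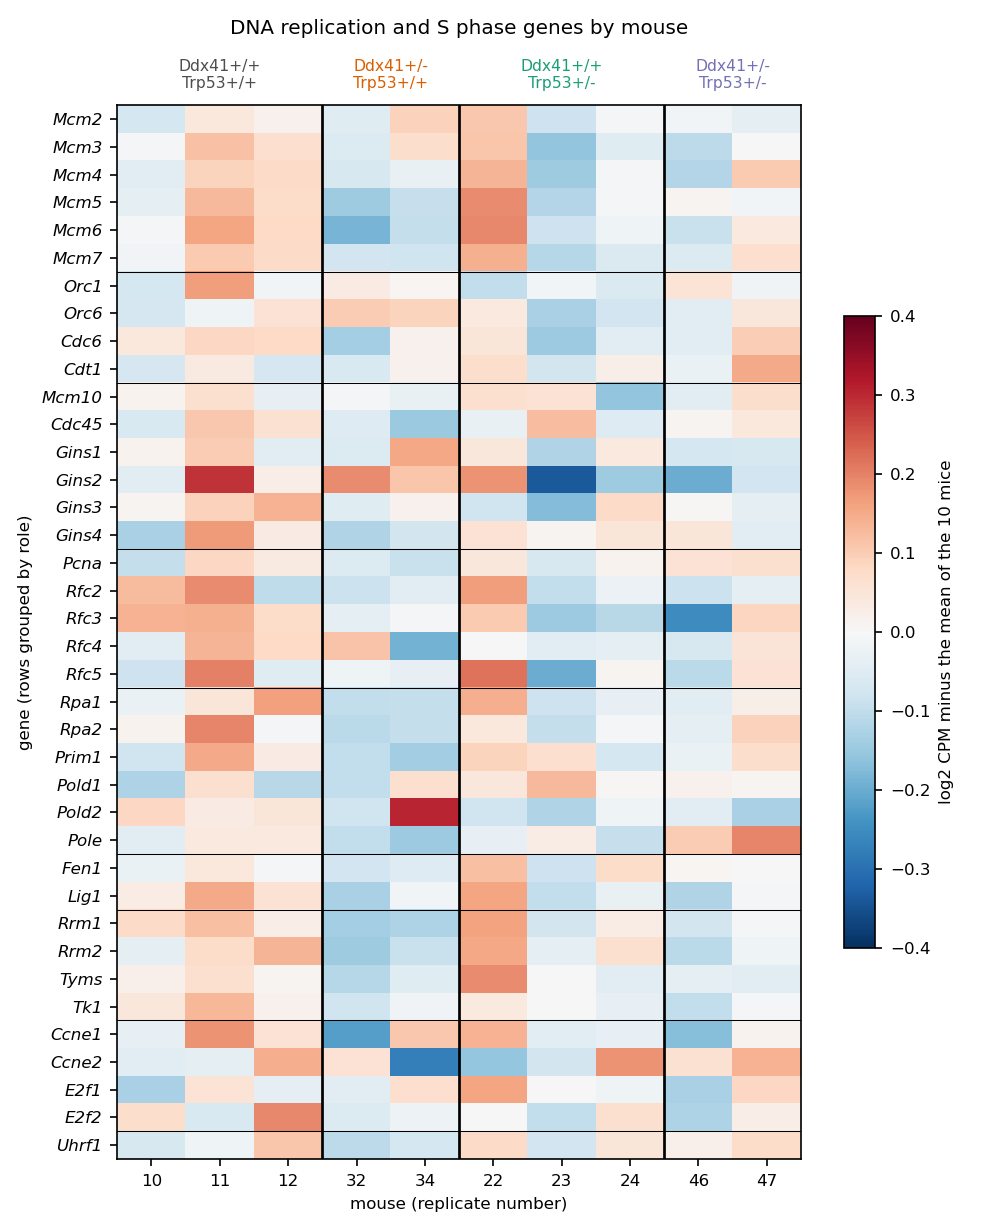
Log2 CPM of each gene in each mouse minus the mean of the 10 mice (colour, log2 units), with genes grouped by role and mice grouped by genotype. Columns 11 and 22 are red over most rows, with 34 and 31 of 38 genes above the mean, and columns 32 and 23 are blue over most rows, with 5 and 7 genes above it.

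To ask whether heterozygous Ddx41 loss was accompanied by a change in these genes, Ddx41+/-Trp53+/+ mice were compared with Ddx41+/+Trp53+/+ mice. None of the 38 genes passed the threshold of a fold over 1.5 and an adjusted p under 0.05 in edgeR, and none did in DESeq2, whereas 0.54% of all tested genes were called. These were 64 genes, a number that rests on single mice, since it was 13 without mouse 34, 26 without mouse 32 and 103 without mouse 12. At an unadjusted p under 0.05 there were 3 of the 38 (9.64% of all tested genes) in edgeR and 3 in DESeq2. The differences were small and mostly negative, with 30 genes below 0 and 8 above. Their median log2 fold change was -0.11, against 0.00 over all tested genes, and they ranged from -0.22 to 0.10. For 16 genes both Ddx41+/- mice lay below all 3 Ddx41+/+ mice (12.1% of all tested genes), and for Orc6 alone both lay above (12.9%). The 95% interval of all 38 lay within a fold of 1.5 in either direction, as it did for 51.3% of all tested genes, and that of 23 lay within a fold of 1.25 (22.8% of all tested genes). Of all tested genes, 49.7% to 51.5% lay below 0 in each of the 7 comparisons made here, and their median was between -0.01 and 0.00. The intervals are for single genes and are not adjusted for their number.

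Rrm1 had the smallest p in this comparison. It stood at 1166, 1204 and 1127 CPM in the Ddx41+/+ mice and at 1008 and 1016 CPM in the Ddx41+/- mice. Both heterozygotes were lower, and the log2 fold change was -0.20 (SE 0.07, adjusted p = 0.330). Rrm2 stood at 1549.6, 1674 and 1746 CPM in the Ddx41+/+ mice and at 1441 and 1495 CPM in the Ddx41+/- mice, a log2 fold change of -0.17 (SE 0.07, adjusted p = 0.445) with no overlap. All 4 genes of nucleotide supply were below 0, with a median of -0.14, and Tyms and the thymidine kinase gene Tk1 did not overlap between the genotypes either. Mcm6, a helicase subunit, stood at 719, 804 and 762 CPM in the Ddx41+/+ mice and at 634 and 675 CPM in the Ddx41+/- mice. Its log2 fold change of -0.22 (SE 0.08, adjusted p = 0.384) was the lowest of the 38. Without mouse 10 the log2 fold changes of Rrm1, Rrm2 and Mcm6 were -0.20, -0.22 and -0.26. Of the helicase subunits 5 were below 0 and 1 above, with a median of -0.11, and the groups did not overlap for Mcm5, Mcm6 and Mcm7.

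The other roles had the same small size. The 5 clamp and clamp loader genes were all below 0, with a median of -0.08, and Rfc3 was the gene among them whose groups did not overlap. Of the 6 genes of the single-strand binding complex, primase and polymerases, 4 were below 0, and Rpa1, Rpa2, the primase gene Prim1 and Pole did not overlap, at log2 fold changes of -0.16, -0.18, -0.16 and -0.13. The polymerase delta genes Pold1 and Pold2 lay at 0.04 and 0.06. The value of Pold2 rested on mouse 34, at 55.8 CPM, whereas mouse 32, at 42.7 CPM, lay below the controls at 47.8, 46.2 and 46.7 CPM. The licensing genes were divided, with Cdc6 at -0.13 and lower in both heterozygotes, Orc6 at 0.10 and higher in both, and Orc1 and Cdt1 at -0.01 and 0.01. The genes of helicase activation (median -0.07) and the cyclin E and E2F genes (median -0.11) overlapped between genotypes throughout. Fen1 and Lig1, at -0.07 and -0.15, and Uhrf1, at -0.10, were lower in both heterozygotes. Without Ddx41+/+Trp53+/+ mouse 10, which stood apart, the count of calls was again 0 and the median of the 38 genes was -0.13. Without mouse 11 of that genotype, which had the highest median of the 3, it was -0.08. With 1 surrogate variable, a factor that sva estimates from the counts, in the fit the median was -0.05, with 27 genes below 0. B cell markers moved with this comparison, with Cd79a and Ebf1 called higher in the Ddx41+/- mice. Their summed level was 378, 221 and 256 CPM in the Ddx41+/+ mice and 378 and 548 CPM in the Ddx41+/- mice, and its part in the values of the replication genes was not tested.

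**Figure D3:**
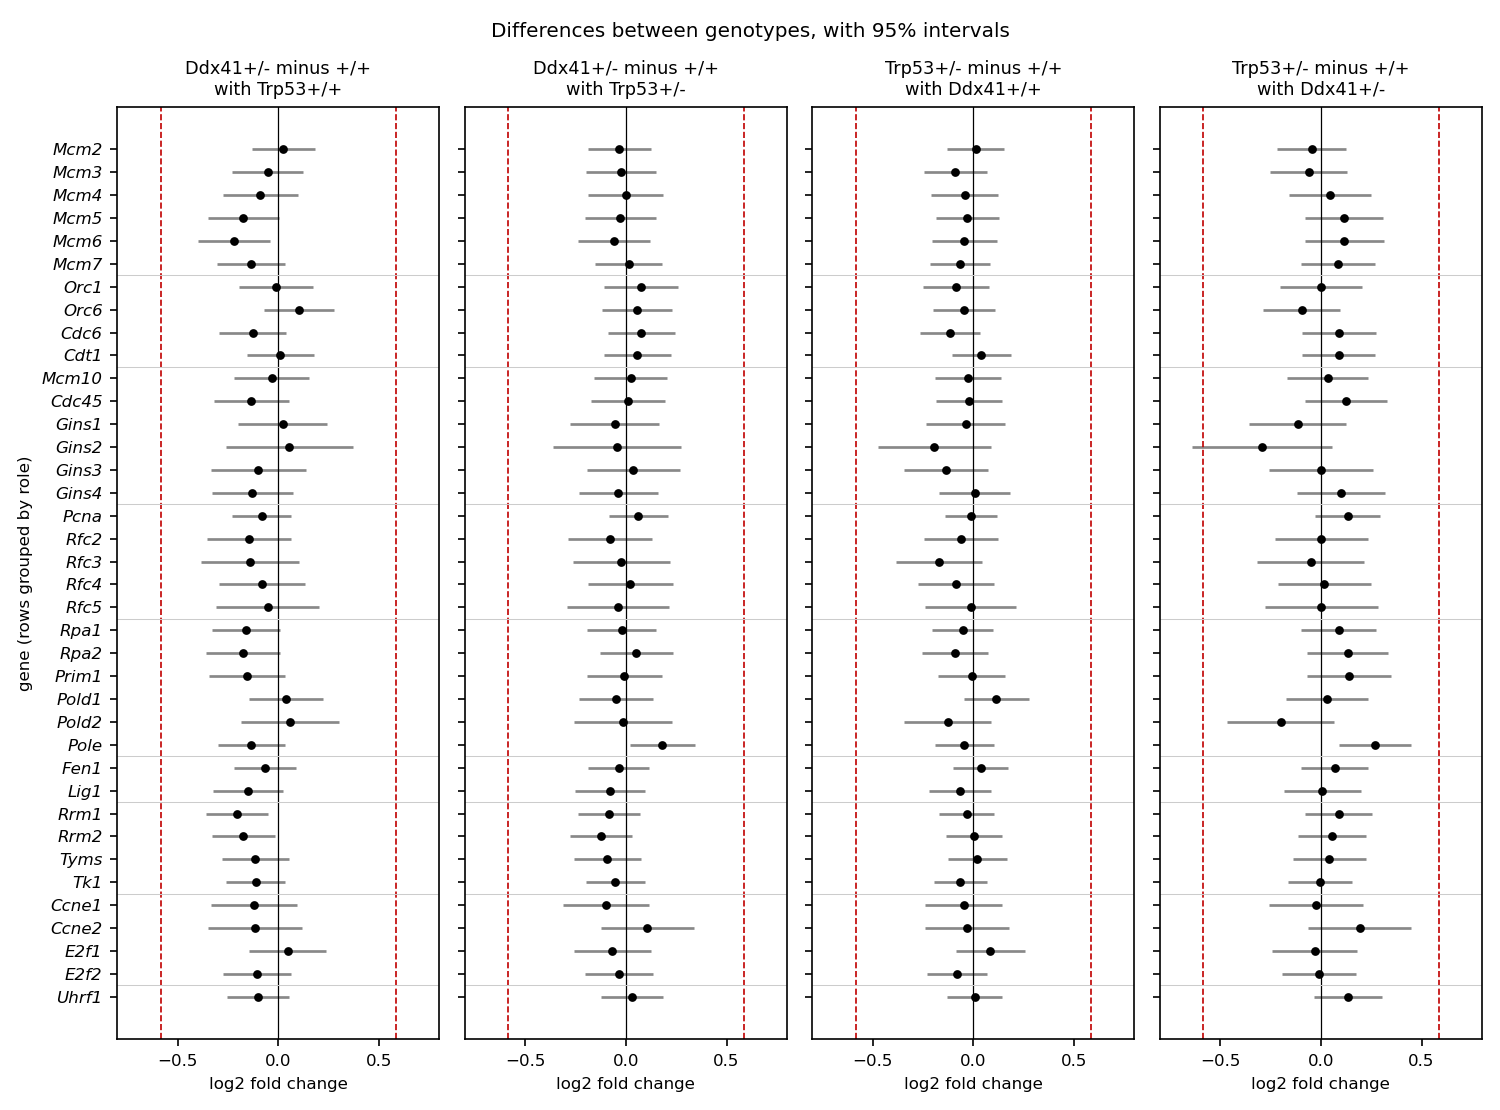
Log2 fold change (points) and its 95% interval (bars) of each gene in the 4 comparisons within a genotype of the other gene, with dashed lines at a fold of 1.5 in either direction. The intervals lie inside the dashed lines in all panels except for Gins2 in the right panel, and those that leave out 0 are Mcm6, Rrm1 and Rrm2 in the left panel and Pole in the panels of Ddx41 with Trp53+/- and of Trp53 with Ddx41+/-.

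The same comparison was made in mice with a single intact Trp53 allele. Between Ddx41+/-Trp53+/- and Ddx41+/+Trp53+/- mice none of the 38 genes was called in edgeR or in DESeq2, and 0.0422% of all tested genes were called in edgeR. At an unadjusted p under 0.05 there was 1 of the 38 (3.75% of all tested genes), in both tools. The values were spread around 0, with 23 below and 15 above and a median of -0.02. No gene lay lower in both Ddx41+/- mice than in all 3 Ddx41+/+ mice (10.8% of all tested genes), and Pcna and Pole lay higher (9.23%). The 95% intervals of all 38 lay within a fold of 1.5, and those of 35 within a fold of 1.25. Pole stood at 138, 144 and 132 CPM in the Ddx41+/+ mice and at 151 and 161 CPM in the Ddx41+/- mice, a log2 fold change of 0.18 (SE 0.08, adjusted p = 1.00). Rrm2 stood at 1769, 1551 and 1662 CPM in the Ddx41+/+ mice and at 1477 and 1573 CPM in the Ddx41+/- mice, which overlapped (log2 fold change -0.12, SE 0.07, adjusted p = 1.00, and -0.08 without mouse 22 or without mouse 46). Tyms stood at 253, 222 and 215 CPM against 216 and 215 CPM, again with overlap, and at a log2 fold change of -0.09 (SE 0.08, adjusted p = 1.00), which was -0.02 without mouse 22. The 4 nucleotide supply genes were below 0 here too, with a median of -0.09, whereas the 4 licensing genes were all above 0, with a median of 0.07. Both leaned on single mice. As log2 CPM minus the mean of the 10 mice, the nucleotide supply median was 0.16, -0.02 and -0.002 in mice 22, 23 and 24. It was -0.09 and -0.01 in mice 46 and 47. The licensing median was 0.04, -0.10 and -0.05 in mice 22, 23 and 24, and -0.03 and 0.07 in mice 46 and 47. The median of the 38 genes depended on single mice. It was 0.03 without Ddx41+/+Trp53+/- mouse 22, 0.03 without Ddx41+/-Trp53+/- mouse 46, -0.06 without Ddx41+/+Trp53+/- mouse 23 and -0.01 without Ddx41+/+Trp53+/+ mouse 11, and with 1 surrogate variable it was 0.01. Macrophage and monocyte markers differed in this comparison, with 9 of 10 above 0 at a median log2 fold change of 0.46, 4 at an unadjusted p under 0.05 and none called. Their summed level was 348, 340 and 313 CPM in the Ddx41+/+ mice and 523 and 394 CPM in the Ddx41+/- mice, without overlap, and its part in the values of the replication genes was not tested.

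To examine heterozygous Trp53 loss, Ddx41+/+Trp53+/- mice were compared with Ddx41+/+Trp53+/+ mice, the same control mice as in the first comparison. None of the 38 genes was called in either tool, against 0.912% of all tested genes in edgeR, and at an unadjusted p under 0.05 there were 0 of the 38 in edgeR and 0 in DESeq2 (9.44% of all tested genes in edgeR). The calls over all genes numbered 108, and 35 without mouse 24. There were 29 genes below 0 and 9 above, with a median of -0.04. Pold2 was lower in all 3 Trp53+/- mice than in all 3 Trp53+/+ mice (6.53% of all tested genes), and no gene was higher in all 3 (7.58%). The 95% intervals of all 38 genes lay within a fold of 1.5 and those of 34 within a fold of 1.25. Rfc3, a clamp loader subunit, stood at 57.5, 57.7 and 55.0 CPM in the Trp53+/+ mice and at 56.2, 47.2 and 48.4 CPM in the Trp53+/- mice. These overlapped through mouse 22, and the log2 fold change was -0.17 (SE 0.10, adjusted p = 0.654). Cdc6, at 331, 340.0 and 339.5 CPM in the Trp53+/+ mice and 332, 290.3 and 311 CPM in the Trp53+/- mice, also overlapped through mouse 22, at a log2 fold change of -0.11 (SE 0.07, adjusted p = 0.666), which was -0.07 without mouse 23. Pold1 stood at 116, 132 and 117 CPM in the Trp53+/+ mice and at 130.3, 138 and 126 CPM in the Trp53+/- mice. Mouse 11 of the controls reached into the upper group, and the log2 fold change was 0.11 (SE 0.08, adjusted p = 0.698), or 0.18 without that mouse. Without mouse 10 the count of calls was 0 and the median of the 38 genes was -0.07. It was -0.09 without Trp53+/- mouse 22, -0.01 without Trp53+/- mouse 23, -0.03 without Trp53+/- mouse 24 and -0.01 without control mouse 11, and with 1 surrogate variable it was -0.01. B cell markers were higher in the Trp53+/- mice, with Vpreb3, Ebf1, Ms4a1, Blnk and Cd79a among those called and a summed level of 415, 456 and 502 CPM against 378, 221 and 256 CPM. Myb, an early erythroid marker, was called too, at a log2 fold change of 0.84 (SE 0.16, adjusted p = 0.0159). Of the macrophage and monocyte markers 9 of 10 were below 0, at a median of -0.57, with 6 at an unadjusted p under 0.05 and none called, and their sums were 348, 340 and 313 CPM against 568, 329 and 524 CPM. Of the late erythroid markers 14 of 15 were above 0, at a median of 0.06, with none called. All 7 T and NK cell markers were above 0 too, at a median of 0.88, with none called. The part of these markers in the values of the replication genes was not tested.

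Among Ddx41+/- mice, Trp53+/- was compared with Trp53+/+, with 2 mice in each group. None of the 38 genes was called in edgeR or DESeq2, against 0.169% of all tested genes in edgeR, and 1 had an unadjusted p under 0.05 in each tool (5.41% of all tested genes in edgeR). Here 27 genes were above 0 and 11 below, with a median of 0.04. Both Trp53+/- mice lay above both Trp53+/+ mice for 15 genes (18.8% of all tested genes) and below them for Orc6, Gins1 and Gins2 (18.5%). The 95% intervals of 37 genes lay within a fold of 1.5 and those of 30 within a fold of 1.25, and Gins2 reached to -0.64. Pole stood at 132 and 127 CPM in the Trp53+/+ mice and at 151 and 161 CPM in the Trp53+/- mice. Its log2 fold change of 0.27 (SE 0.08, adjusted p = 0.476) was the highest of the 38. Gins2 stood at 35.6 and 33.7 CPM in the Trp53+/+ mice and at 27.1 and 29.6 CPM in the Trp53+/- mice, a log2 fold change of -0.29 (SE 0.16, adjusted p = 0.945). This was the lowest of the 38, in a gene whose exons largely overlap Gse1. Pcna stood at 943 and 919 CPM in the Trp53+/+ mice and at 1018 and 1024 CPM in the Trp53+/- mice, a log2 fold change of 0.13 (SE 0.08, adjusted p = 0.946). The single-strand binding, primase and polymerase genes had a median of 0.11, with 5 of 6 above 0, and Pold2, at -0.20, was the gene below. Pold2 stood at 42.7 and 55.8 CPM in Trp53+/+ mice 32 and 34 and at 43.9 and 41.2 CPM in the Trp53+/- mice. Its value thus rested on mouse 34. The median of the 38 genes was 0.02 without Trp53+/- mouse 47, with 17 genes below 0, and with 8 below it was 0.08 without Trp53+/- mouse 46 and 0.07 without Trp53+/+ mouse 34. In this comparison 11 of 12 neutrophil and myeloid progenitor markers were below 0 (median -0.13) and 13 of 15 B cell markers above (median 0.25), with none at an unadjusted p under 0.05, and their part in the values of the replication genes was not tested.

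The interaction term asks whether the difference between Ddx41+/- and Ddx41+/+ depends on Trp53. None of the 38 genes passed (0.0675% of all tested genes called), in edgeR or DESeq2, and 1 had an unadjusted p under 0.05 in each (5.01% of all tested genes in edgeR). The estimates were above 0 for 31 genes and below for 7, with a median of 0.08, and their standard errors had a median of 0.12. This term is the Ddx41 difference with Trp53+/- minus that with Trp53+/+, and it uses the mice of all 4 genotypes. The 4 comparisons above share mice with each other and with this term. Pole was the gene with the largest estimate, 0.32 on the log2 scale (SE 0.11, adjusted p = 0.788). Its interval, 0.08 to 0.55, left out 0 before adjustment. Without Ddx41+/+Trp53+/+ mouse 10 the median of the 38 genes was 0.10. It was 0.05 without mouse 11, 0.12 without mouse 46 and 0.04 without mouse 47, where 13 genes lay below 0. All 15 B cell markers were below 0 in this term (median -1.01, 7 at an unadjusted p under 0.05) and 9 of 10 macrophage and monocyte markers above (median 0.57, 2 at an unadjusted p under 0.05). Also below 0 were 11 of 12 neutrophil and myeloid progenitor markers (median -0.25) and 6 of 7 T and NK cell markers (median -1.10). None of these markers was called, and their part in the values of the replication genes was not tested. The 95% intervals of all 38 genes lay within a fold of 1.5 and those of 11 within a fold of 1.25.

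Taking mice of both genotypes of the other gene gave the tightest estimates. For Ddx41+/- against Ddx41+/+ over both Trp53 genotypes, 0 of 38 genes were called in edgeR and 0 in DESeq2 (0.11% of all tested genes in edgeR), and 3 had an unadjusted p under 0.05 in each tool (8.98%). There were 32 genes below 0 and 6 above, with a median of -0.04 and a range of -0.15 to 0.08, and the 95% intervals of all 38 lay within a fold of 1.25, as did those of 40.5% of all tested genes. The 3 genes were Rrm2 at -0.15 (SE 0.05, adjusted p = 0.406), Rrm1 at -0.14 (SE 0.05, adjusted p = 0.438) and Mcm6 at -0.14 (SE 0.06, adjusted p = 0.527). Without Ddx41+/+Trp53+/+ mouse 10 the median was -0.06, without mouse 11 it was -0.02, and without mouse 23 or mouse 47 it was -0.07. The lean to one side depended on the settings, with 20 genes below 0 and a median of 0.00 with 1 surrogate variable, 23 below 0 without mouse 11 and 27 with at least 10 counts required in every library. In this comparison 12 of 15 B cell markers (median 0.37, 6 at an unadjusted p under 0.05) and all 10 macrophage and monocyte markers (median 0.16) were above 0, with none called. For Trp53+/- against Trp53+/+ over both Ddx41 genotypes, 0 of 38 were called in edgeR and 0 in DESeq2 (0.287% of all tested genes in edgeR), and 1 had an unadjusted p under 0.05 in each (11.2%). Of the genes, 21 lay below 0 and 17 above, the median was 0.00, and the intervals of all but Gins2, at -0.23 (SE 0.10, adjusted p = 0.401), lay within a fold of 1.25. Without mouse 10 the median was -0.01, and leaving out each mouse in turn gave medians on both sides of 0, from -0.03 without mouse 22 to 0.03 without mouse 23. All 15 B cell markers were above 0 (median 0.83, 13 at an unadjusted p under 0.05, Ebf1 called) and all 10 macrophage and monocyte markers below (median -0.34, none called). All 7 T and NK cell markers were above 0 (median 0.45, none called). The part of these markers in either comparison was not tested.

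The other genes of the pathway were read from 5 fixed lists of 105 genes, of which 103 were tested. Among them Cdkn1a was the one gene called in any of the 7 comparisons. It stood at 6.75, 6.71 and 7.68 CPM in the Ddx41+/+Trp53+/+ mice and at 16.6 and 15.6 CPM in the Ddx41+/-Trp53+/+ mice, a log2 fold change of 1.20 (SE 0.22, adjusted p = 0.0153). In Ddx41+/-Trp53+/- mice it stood at 5.87 and 4.99 CPM, and in Ddx41+/+Trp53+/- mice at 4.40, 6.55 and 3.84 CPM. Among Ddx41+/- mice it fell by 1.57 on the log2 scale with Trp53 heterozygosity (SE 0.25, adjusted p = 0.00973), whereas its interaction term of -1.07 (SE 0.33, adjusted p = 0.672) did not pass. Its level per kb, 2.22 ± 1.26 CPM (SD, n = 10), was below that of each of the 38 genes, of which Gins2 was the lowest at 7.67 CPM per kb.

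With Trp53+/+, 83 of the 103 genes were below 0 in Ddx41+/- mice and 20 above, with a median of -0.09. The other replisome genes, such as the polymerase alpha and topoisomerase genes, had 22 of 26 below 0 (median -0.10), the genes of replication control and fork protection, such as Chek1, Timeless and Clspn, 19 of 21 (median -0.13), and the replication-coupled chromatin genes, such as Chaf1a, Asf1b and Dnmt1, 12 of 12 (median -0.12). The other nucleotide supply genes had 14 of 18 below 0 (median -0.07) and the other E2F, pocket protein and CDK inhibitor genes 16 of 26 (median -0.01). With Trp53+/-, 69 of the 103 were below 0 (median -0.03). For Trp53+/- against Trp53+/+, 57 were below 0 with Ddx41+/+ (median -0.02) and 43 with Ddx41+/- (median 0.03). The 20 mitosis genes, with Mki67 the most abundant, had 16 below 0 with a median of -0.10 in the first of these comparisons and 18 above 0 with a median of 0.08 in the last, and none was called. Each count comes from the same few mice, so its genes are not independent observations.

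The median of the 38 genes in each mouse, as log2 CPM minus the mean of the 10 mice, shows how the mice lay within each genotype. It was -0.03, 0.10 and 0.04 in Ddx41+/+Trp53+/+ mice 10, 11 and 12, and -0.08 and -0.03 in Ddx41+/-Trp53+/+ mice 32 and 34. It was 0.08, -0.08 and -0.02 in Ddx41+/+Trp53+/- mice 22, 23 and 24, and -0.04 and 0.03 in Ddx41+/-Trp53+/- mice 46 and 47. The genotypes overlapped, but Ddx41+/+Trp53+/+ and Ddx41+/-Trp53+/+ did so through mouse 10 alone, and without it mice 11 and 12 lay above both heterozygotes. Mice 22 and 23, of 1 genotype, lay near the top and at the bottom of the range. The means by genotype, 0.04 ± 0.07 (SD, n = 3), -0.05 ± 0.03 (n = 2), -0.01 ± 0.08 (n = 3) and -0.01 ± 0.05 (n = 2) in the order given, differed from each other by less than the pooled standard deviation of 0.07 between mice of 1 genotype, except that the first exceeded the second by more. Mouse 22 was highest for the helicase genes at 0.14 and mouse 23 lowest at -0.12, and both are Ddx41+/+Trp53+/-.

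**Figure D4:**
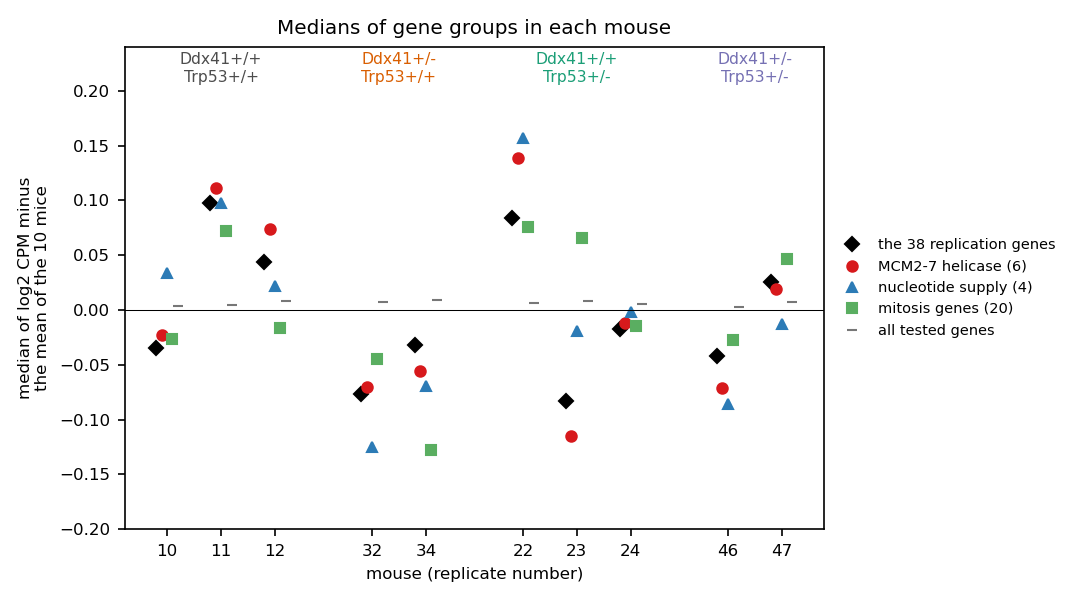
Median over genes of log2 CPM minus the mean of the 10 mice, for each mouse, for the 38 genes, the 6 helicase genes, the 4 nucleotide supply genes, the 20 mitosis genes and all tested genes. The 38 genes span from -0.08 in mouse 23 to 0.10 in mouse 11, and all tested genes stay near 0 in every mouse.

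The genes varied together within genotypes. After subtraction of each genotype's mean, the 703 pairs among the 38 genes had a median Pearson's r of 0.46 over the 10 mice, and 45.7% of the pairs were above 0.5. Pairs of a listed gene with any other tested gene had a median of 0.00, and 15.2% of them were above 0.5. These 2 sets of pairs differ in abundance, with medians of 195 CPM over the 38 genes and 15.4 CPM over all tested genes. Counting error is smaller at higher counts, and pairs matched for abundance were not examined. The points of each correlation come from the same 10 libraries and share their depth and scaling, so these values are a description. Subtraction of the genotype means also leaves fewer independent points than 10. In the genotypes with 2 mice the 2 points mirror each other exactly, so single values of r are loose. Without Ddx41+/+Trp53+/+ mouse 10, a choice made after the data were seen, the median over the 703 pairs was 0.43 and that over the helicase pairs was 0.89, with E2f1 at 0.86 and E2f2 at 0.21 against the median of the others. The helicase genes were the tightest role, with a median r of 0.90 over 15 pairs and a range of 0.68 to 0.98. Nucleotide supply had a median of 0.59 over 6 pairs, the clamp and its loader 0.52 over 10, helicase activation 0.33 over 15, the single-strand binding, primase and polymerase genes 0.31 over 15, licensing 0.31 over 6, and the cyclin E and E2F genes 0.09 over 6. Fen1 and Lig1 correlated at 0.78.

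Against the median of the other 37 genes, Mcm6 had the highest r at 0.98, followed by Mcm3 at 0.94, the clamp loader gene Rfc5 at 0.94, Mcm4 at 0.94, Lig1 at 0.94 and Mcm7 at 0.94. E2f1 followed the median at 0.89 and Ccne1 at 0.78, whereas their relatives E2f2 and Ccne2 stood at 0.14 and -0.19. Cdc45 (-0.07), Pold2 (0.03), Orc1 (0.08), Pole (0.20) and Pold1 (0.20) also had a low r with this median. Some of them varied closely with single genes, with Cdc45 and Pole at 0.86, Pole and Prim1 at 0.81 and Orc1 and Gins4 at 0.81. Against single genes E2f2 ranged from -0.72 with Orc1 and -0.61 with Pold1 to 0.74 with Uhrf1. The difference between E2f1 and E2f2 was not tested.

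**Figure D5:**
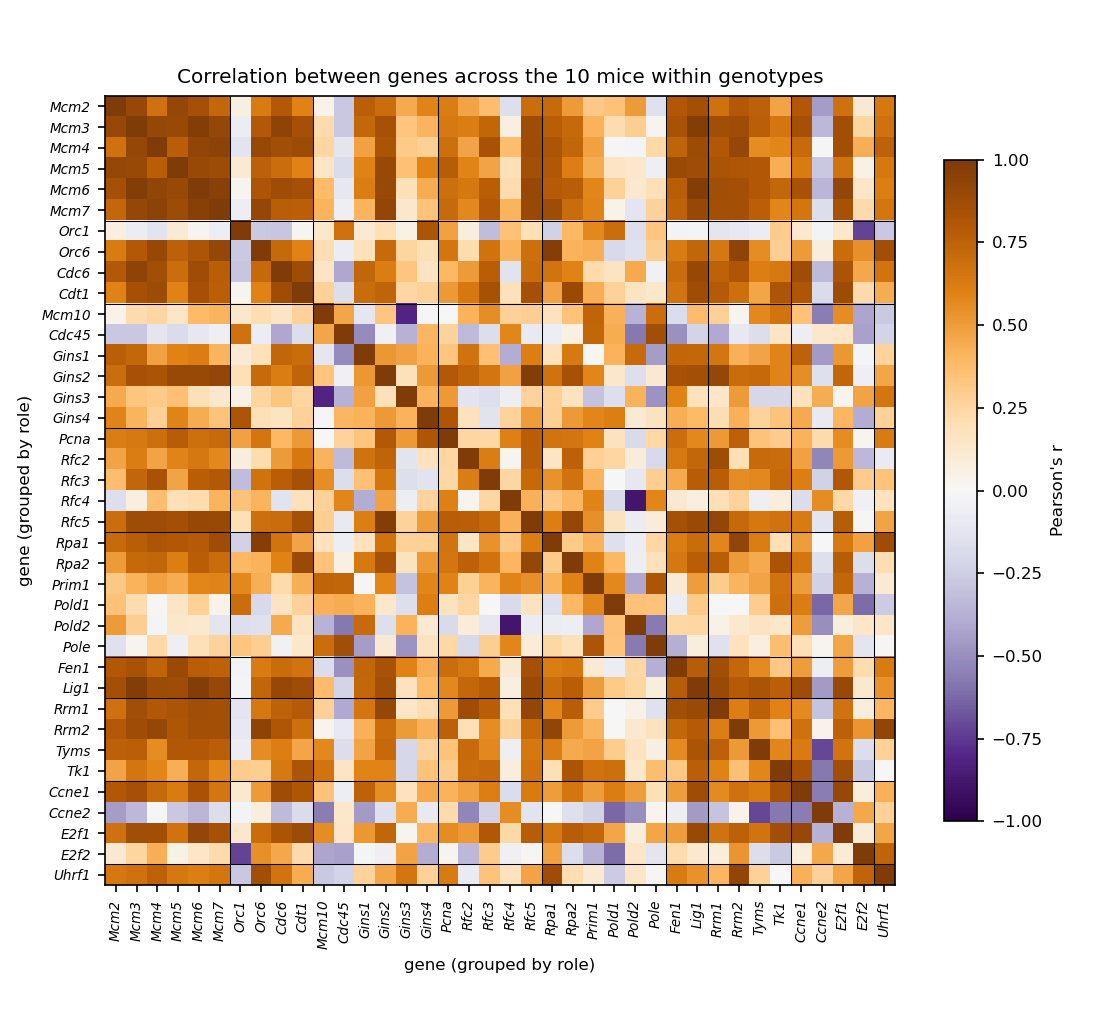
Pearson's r between each pair of the 38 genes over the 10 mice after subtraction of genotype means, with genes grouped by role and colour running from -1 to 1. The helicase genes form a dark block with a median of 0.90, and the rows of Orc1, Cdc45, Pold2, Pole, Ccne2 and E2f2 are pale or negative against most others.

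The genes lie on many chromosomes, and the neighbours of Orc6, Mcm5, Ccne2 and Pold1 and the distances to Trp53 are given here as a description. Orc6 (chr8:85299632-85308278, mm10, plus strand) had 79 tested genes within 5 Mb, of which 6 (7.59%) were called between Ddx41+/- and Ddx41+/+ mice with Trp53+/+, against 0.54% of all tested genes, and 5 (6.33%) between Trp53+/- and Trp53+/+ mice with Ddx41+/-, against 0.169%. Of the other genes of the 38 on this chromosome, Cdt1, Gins2, Gins3 and Gins4 had 0 called neighbours in both comparisons, and Mcm5 is given below. Orc6 stood at 114, 118 and 124 CPM in the Ddx41+/+Trp53+/+ mice, at 128 and 126 CPM in the Ddx41+/-Trp53+/+ mice, and at 115 and 123 CPM in the Ddx41+/-Trp53+/- mice. With Trp53+/+ it was the gene of the 38 that was higher in both Ddx41+/- mice, and its log2 fold change of 0.10 (SE 0.08, adjusted p = 0.760) did not pass. Mcm5 (chr8:75109569-75128439, plus strand) had 96 tested genes within 5 Mb, of which 4 (4.17%) were called in the first of these comparisons and 1 (1.04%) in the second. It lay on the other side of 0, at a log2 fold change of -0.17 (SE 0.08, adjusted p = 0.536). Between Trp53+/- and Trp53+/+ mice with Ddx41+/+, 2 of 30 tested genes within 5 Mb of Ccne2 (6.67%) were called. For Pold1 these were 3 of 97 (3.09%), against 0.912% of all tested genes. On chromosome 11, Rpa1 lies 5.74 Mb from Trp53, Cdc6 29.3 Mb, Tk1 48.2 Mb and Pold2 63.7 Mb. Over both Ddx41 genotypes their log2 fold changes with Trp53 heterozygosity were 0.00 (SE 0.06) for Rpa1, -0.03 (SE 0.06) for Cdc6, -0.04 (SE 0.05) for Tk1 and -0.16 (SE 0.08) for Pold2, and none passed.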

How the data were processed

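RNA of sorted cells was poly(A)-selected and sequenced from both ends. The deposited table holds unnormalized counts of reads for each gene symbol, as the authors made them, and per the labels' processing notes the tools were FastQC 0.11.7, HISAT2 2.0.5 and featureCounts 1.5.2 on mm10. The annotation, strand setting and handling of multi-mapping reads were not given in the sources used here, and the labels and the paper name different library kits. The table's name records that libraries of other mice were removed, and the reason was not given in the sources used here. The numbers of the removed mice fall beside those of the Ddx41+/- mice, whose genotypes have 2 mice each. All 10 columns were matched to a sample by name. Counts were filtered (filterByExpr), scaled by TMM and fitted in edgeR 4.0.16 (R 4.3.3) with 1 mean per genotype over all 10 libraries, or additively for the comparisons over both genotypes, and tested by the quasi-likelihood F test with Benjamini-Hochberg adjustment over 11846 genes. DESeq2 1.42.0, other scalings and filters, a surrogate variable (sva 3.50.0) and leaving out mice were alternatives. CPM used TMM-scaled totals. Lengths were unions of GENCODE exons. The code was tested on simulated data. The genes and lists were chosen with earlier results of these data known. Full values are given for the 3 genes of smallest p in each comparison within a genotype, and levels for the highest and lowest gene of each role. No replicate number occurs in more than 1 genotype. Some marker genes are not reported here.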

Additional observations from a re-analysis of the deposited data

Results flagged for a closer look

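In groups of 4 to 6 mice that share a Ddx41 or a Trp53 genotype, 1 mouse stood far from the others in 6 of 152 groups examined (3.95%). A mouse was flagged where its gap to the nearest mouse, as a share of the group's range, passed a fixed cutoff for the group's size. Such cutoffs, which are those of Dixon's Q test, also flag some groups by chance alone. The chance rate was not measured in these data, and the 6 groups are listed as a description. Orc1 was highest in Ddx41+/+Trp53+/+ mouse 11, at 122 CPM against 108 CPM in the nearest of the 6 Ddx41+/+ mice. Rfc5 was highest in the same mouse, at 78.0 CPM against 67.2 CPM in the nearest of the 5 Trp53+/+ mice. Gins1 was highest in Ddx41+/-Trp53+/+ mouse 34, at 55.4 CPM against 47.9 CPM in the nearest of the 4 Ddx41+/- mice, and this library was the smallest. Tyms was lowest in Ddx41+/-Trp53+/+ mouse 32, at 205 CPM against 214 CPM among the same 4 mice. Rfc2 and Tyms were highest in Ddx41+/+Trp53+/- mouse 22, at 146 CPM and 253 CPM against 128 CPM and 222 CPM in the nearest of the 5 Trp53+/- mice.

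Pole was lower in both Ddx41+/- mice than in all Ddx41+/+ mice with Trp53+/+ and higher in both with Trp53+/-, and it was the 1 gene of the 38 whose groups did not overlap in opposite directions. The difference between the effects was 0.32 on the log2 scale and did not pass the test (adjusted p = 0.788, edgeR).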

How the results depend on the processing

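Under the 18 alternative settings, 10 of which left out 1 mouse each, the count of the 38 genes called was 0 in every comparison, in all 123 values computed. All 116 medians moved by less than the spread between mice of 1 genotype, 0.07. That spread exceeds the size of the median itself in most comparisons. A median could thus reach 0 or change sign within it, and this criterion says little about stability. The 216 single-gene fold changes passed the threshold in no setting, as none was near it, and their sizes moved, as for Tyms from -0.14 to -0.02 with Trp53+/- and for Cdc6 from -0.16 to -0.06 with Ddx41+/+. The median of the 38 genes ranged from -0.13 to -0.05 for Ddx41+/- against Ddx41+/+ with Trp53+/+ and from -0.06 to 0.03 with Trp53+/-, where its sign changed without mouse 22, without mouse 46 and with 1 surrogate variable. For Trp53+/- against Trp53+/+ it ranged from -0.09 to 0.00 with Ddx41+/+ and from 0.02 to 0.08 with Ddx41+/-. Over both genotypes it ranged from -0.07 to 0.00 for Ddx41 and from -0.03 to 0.03 for Trp53, and for the interaction from 0.04 to 0.12. Leaving out 1 mouse also moved the number of calls over all genes, from 5 to between 1 (mouse 46) and 10 (mouse 23) for Ddx41 with Trp53+/-, from 20 to 13 (mouse 34) for Trp53 with Ddx41+/-, from 13 to between 2 (mouse 10 or 34) and 42 (mouse 23) for Ddx41 over both genotypes, and from 34 to between 20 (mouse 23) and 79 (mouse 34) for Trp53 over both. Where leaving out a mouse left a genotype with 1, that mouse was assumed to vary like the others. A fit of only the genotypes compared is no alternative for the last 3 comparisons, which use all 4. Size factors in place of TMM moved the median of all genes by at most 0.0036. The correlations without mouse 10 and the rank of Rrm1 by its longest coding transcript (5 in place of 13) were added after seeing the data. No paired analysis was possible because the genotypes share no replicate numbers. With 2 or 3 mice per genotype, no difference of the sizes seen in the 38 genes passed after adjustment over all genes, and a p that misses the threshold does not show that levels are equal.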
